A study of Homo sapiens with 9 samples.

Results

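The genes described here encode the enzymes that make cholesterol and the proteins that switch those enzymes on through the transcription factor SREBP2. Of 16630 genes in the deposited table, 29 belong to this group. They were found by symbol from a fixed list of 31 symbols, in which 2 genes stand under both an older and a newer name, and all 29 passed the filter on low values, a 9-library mean of 0.5 FPKM or more. FPKM is a fragment count scaled to transcript length and to sequencing depth, so that levels can be compared between genes. The cells were H1650, an established human line of non-small cell lung cancer, collected on day 3 after transfection with siRNA at 20 nM. In the siMENA11a group, 3 siRNAs were mixed whose target is exon 11a of ENAH, the gene of the actin regulator hMENA. This exon is specific to the isoform hMENA11a. The siMENA group received a commercial pool of siRNAs against ENAH as a whole, and the control group a non-targeting pool. All were single transfections of the same line, with no other agent named. Each group had 3 libraries. The submitters call them biological replicates, but nothing says whether they came from separate cultures, so p-values measure the spread between these libraries only.

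Cells build cholesterol from acetyl-CoA through mevalonate, isoprenoid diphosphates, squalene and lanosterol. When cholesterol in the endoplasmic reticulum is low, the sensor SCAP carries SREBP2 to the Golgi, where the proteases encoded by MBTPS1 and MBTPS2 release its active part, which then enters the nucleus and raises transcription of nearly the whole pathway. When sterols are plentiful, the INSIG proteins hold SCAP and SREBP2 back. INSIG1 is itself a target of SREBP2, which closes a feedback loop.

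Most enzymes of the pathway fell with the siRNAs against exon 11a. In siMENA11a against control, 13 of the 20 enzymes were lower, none was higher and 7 did not pass (limma, adjusted p under 0.05). In siMENA against control, none of the 20 enzymes passed in either direction, while with the replicate number as a block FDPS was lower and HMGCS1 and DHCR7 were higher (adjusted p 0.0299, 0.0348 and 0.0439). That block raised the calls among all genes tested to 3149, from 2463 without it. Over all 29 genes, 14 were lower and 1 was higher in siMENA11a against control. That is 48.3% lower, where 11.3% of all 13273 genes tested were lower, and 3.45% higher, where 8.16% of all genes were higher. In siMENA against control, 1 of the 29 was lower and 2 were higher, next to 8.24% lower and 10.3% higher among all genes. Measured directly against siMENA, 18 of the 29 were lower in siMENA11a and 1 was higher, next to 22.2% lower and 14.4% higher among all genes. The median log2 fold change of the 29 genes in siMENA11a against control was -0.35 (-0.01 over all genes), and -0.22 without siMENA11a replicate 2.

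ENAH, the gene the siRNAs target, stood at 9.98, 11.02 and 10.3 FPKM in the siMENA11a libraries and 4.43, 5.79 and 5.57 FPKM in the siMENA libraries, against 26.1, 30.04 and 26.1 FPKM in the control libraries. The log2 fold change against control was -1.31 in siMENA11a and -2.18 in siMENA (limma adjusted p 6.29e-05 and 6.41e-06). The values are per gene and do not separate the isoforms. Of 10 markers of lung epithelium and carcinoma 8 were among the genes analysed, with a summed level of 3952 to 4451 FPKM in siMENA11a, 4699 to 4900 FPKM in siMENA and 4828 to 5147 FPKM in control libraries, most of it from keratins. SFTPB, a surfactant protein of alveolar cells, was near 0, with a mean of 0.203 FPKM in siMENA11a, 0.217 FPKM in siMENA and 0.145 FPKM in control. Of the 7 tested, 3 were lower and none was higher in siMENA11a than in control: KRT8, KRT18 and CDH1 (log2 fold changes of -0.35, -0.40 and -0.42, limma adjusted p of 0.029, 0.0102 and 0.00196). EPCAM, KRT7, KRT19 and MUC1 did not pass there (0.09, 0.07, -0.10 and 0.56), and in siMENA against control only KRT7 passed, as lower (-0.41, adjusted p 0.0059). The libraries numbered 2 stood apart in all 3 groups. Of the markers of other cell types, 6 of 9 were among the genes analysed, and their summed level was 22.5 FPKM in siMENA11a replicate 2, 18.3 in siMENA replicate 2 and 19.01 in control replicate 2, while the other 6 libraries held 6.25 to 7.53 FPKM. Most of this was VIM, a filament protein of mesenchymal cells, at 12.7, 9.70 and 10.9 FPKM in those 3 libraries. The part of these markers in the results was not tested. Without the 3 libraries numbered 2, 13 of the 29 genes were lower and 1 was higher in siMENA11a against control. In siMENA against control 2 were lower and 2 higher, and in siMENA11a against siMENA 19 were lower and 1 higher. Among all genes, 1641, 1614 and 4073 were called in these comparisons in that setting. Of those calls, 56.9%, 50.2% and 59.6% were lower. No excess over all genes is read from the 2 lower and 2 higher genes in siMENA against control. In libraries of whole cultures, fewer cells that express a gene and less of its RNA per cell cannot be told apart.

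Of the 2 genes that lead to HMG-CoA, 1 fell. ACAT2, the cytosolic thiolase that joins acetyl-CoA units, measured 23.3, 23.2 and 26.4 FPKM in siMENA11a and 48.5, 41.7 and 42.1 FPKM in siMENA, against 38.8, 41.3 and 40.6 FPKM in control. Every siMENA11a library lay below every control library, and the mean was 60.4% of control. The log2 fold change, taken here and below on log2(FPKM + 1), was -0.71 (SE 0.07, limma adjusted p 0.000303). HMGCS1, the synthase that makes HMG-CoA, had 77.6, 71.5 and 79.01 FPKM in siMENA11a, 97.2, 83.9 and 90.9 FPKM in siMENA and 83.6, 75.3 and 83.1 FPKM in control. Its siMENA11a and control libraries overlapped, and the log2 fold change of -0.08 did not pass (adjusted p 0.441, 95% interval -0.24 to 0.07). Relative to siMENA it was lower in siMENA11a (-0.25, adjusted p 0.0194), a call that was lost without siMENA11a replicate 2 or siMENA replicate 1 and with median-ratio scaling (adjusted p 0.0536 to 0.0773, against 0.00336 to 0.0773 over all settings tried).

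Of the 6 genes that lead from mevalonate to the isoprenoid diphosphates, 4 were lower in siMENA11a than in control. MVD, the decarboxylase that closes the mevalonate steps, was the lowest relative to control, with 21.01, 20.7 and 21.6 FPKM in siMENA11a and 46.01, 38.5 and 41.7 FPKM in siMENA, against 38.6, 36.4 and 38.3 FPKM in control. The siMENA11a libraries were close together and all far below the others, at 55.9% of the control mean (log2 fold change -0.81, SE 0.07, limma adjusted p 7.88e-05). MVK, the kinase that acts on mevalonate itself, measured 12.8, 11.6 and 14.6 FPKM in siMENA11a, 22.3, 20.7 and 21.5 FPKM in siMENA and 20.4, 19.7 and 19.8 FPKM in control, which left siMENA11a at 64.96% of the control mean (-0.59, adjusted p 0.000878). The next kinase in line, PMVK, measured 17.1, 16.7 and 18.3 FPKM in siMENA11a, all above the control values of 14.8, 14.6 and 14.5 FPKM, and its log2 fold change of 0.23 did not pass (adjusted p 0.0735). It passed as higher in a fit of siMENA11a and control alone and without siMENA replicate 3 (adjusted p 0.0348 and 0.0196). In siMENA against control PMVK also passed as higher without siMENA replicate 3 (0.24, limma adjusted p 0.0287). MVK, PMVK and MVD act in direct succession.

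IDI1, which interconverts the isopentenyl units, had 23.6, 21.2 and 26.8 FPKM in siMENA11a, 38.8, 32.8 and 34.98 FPKM in siMENA and 30.7, 30.004 and 32.2 FPKM in control. Its log2 fold change in siMENA11a against control was -0.37 (adjusted p 0.0156), and the call was lost without control replicate 3 and without the libraries numbered 2 (adjusted p 0.0606 and 0.0516, against 0.00623 to 0.0606 over all settings). FDPS, which makes farnesyl diphosphate, the last compound before the route commits to sterols, lay below control in every library of both siRNA groups. It held 57.2, 48.05 and 55.9 FPKM in siMENA11a and 71.6, 67.2 and 64.4 FPKM in siMENA, against 83.9, 77.4 and 75.8 FPKM in control. The log2 fold change was -0.55 in siMENA11a (adjusted p 0.00123) and -0.22 in siMENA, which did not pass (adjusted p 0.0685). It passed with a block for the replicate number, in a fit of siMENA and control alone and without siMENA11a replicate 2 (adjusted p 0.0299, 0.0376 and 0.0262, against 0.0262 to 0.2 over all settings). Named pseudogenes, 8 for FDPS and 3 for CYP51A1, make these 2 values uncertain where reads were split. GGPS1, which draws farnesyl diphosphate off towards protein prenylation, was 14.1, 13.4 and 16.2 FPKM in siMENA11a, above all control values (11.8, 12.4 and 12.2 FPKM), with a log2 fold change of 0.24 that did not pass (adjusted p 0.0662) but did without siMENA11a replicate 2 (adjusted p 0.0438).

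**Figure D1:**
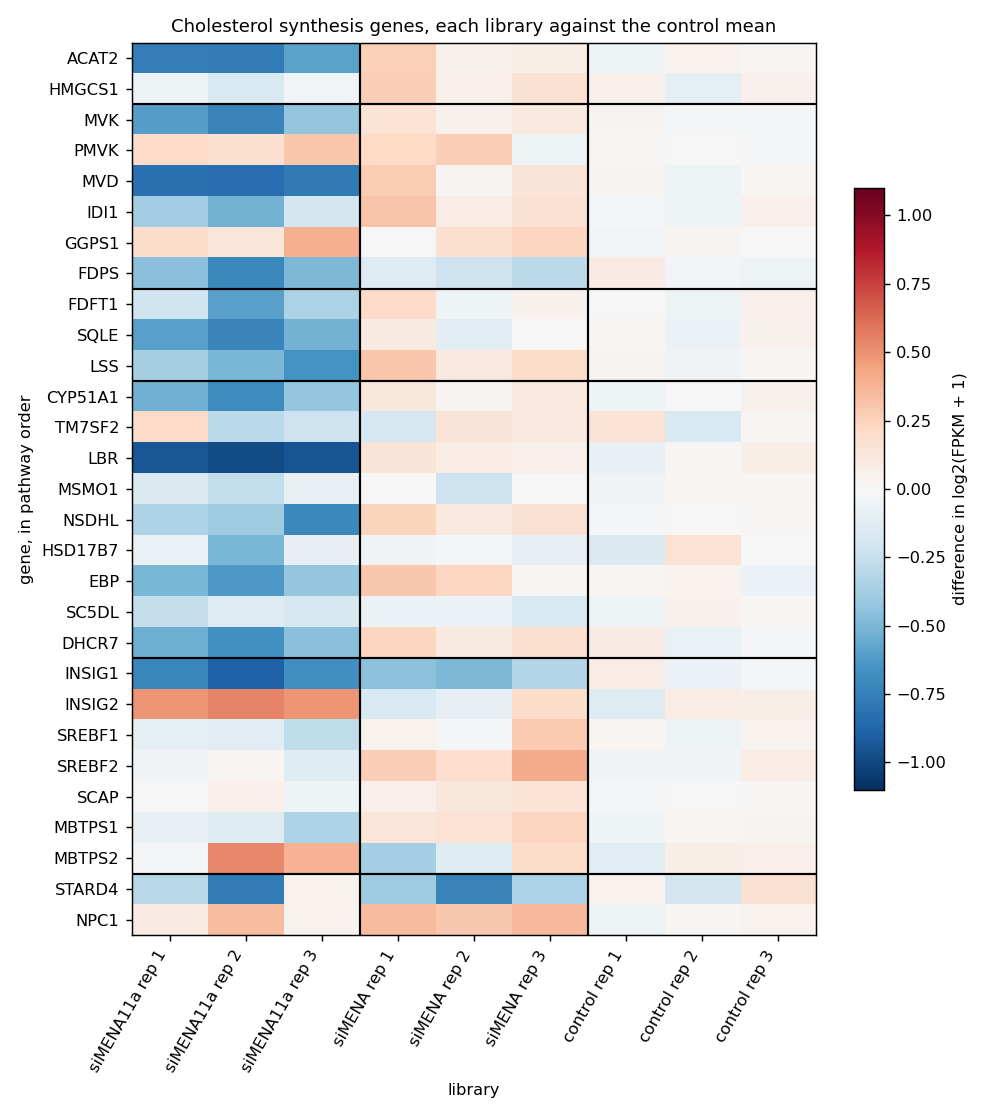
Difference of each of the 29 genes (rows, in pathway order, lines between the functional groups) from its mean over the control libraries, in log2(FPKM + 1), for the 9 libraries (columns). The siMENA11a columns are blue for most enzymes in each of the 3 libraries, with MVD and LBR the darkest, whereas the siMENA columns are pale red for most enzymes and blue for FDPS, INSIG1 and STARD4.

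All 3 enzymes that form squalene and lanosterol were lower in siMENA11a than in control. SQLE, the squalene epoxidase and a controlling step of sterol synthesis, measured 53.6, 48.9 and 56.5 FPKM in siMENA11a and 87.4, 74.8 and 81.4 FPKM in siMENA, against 82.6, 78.2 and 84.5 FPKM in control. The siMENA11a libraries were at 64.8% of the control mean (log2 fold change -0.62, SE 0.07, limma adjusted p 0.000602), while siMENA and control overlapped (-0.01, adjusted p 0.927, 95% interval -0.17 to 0.15). LSS, which closes the sterol rings, had 16.9, 15.3 and 13.6 FPKM in siMENA11a, 27.4, 23.8 and 25.5 FPKM in siMENA and 22.5, 21.4 and 22.2 FPKM in control. Its libraries separated into 3 groups without overlap, siMENA11a lowest and siMENA highest. LSS fell by 0.51 in siMENA11a against control (adjusted p 0.00234), and the difference of 0.20 in siMENA did not pass (adjusted p 0.0991). FDFT1, the squalene synthase, held 41.01, 31.4 and 37.4 FPKM in siMENA11a, 55.6, 46.3 and 49.6 FPKM in siMENA and 47.9, 46.1 and 49.8 FPKM in control. Its fall in siMENA11a (-0.39, adjusted p 0.0202) did not pass once control replicate 1 or 3 was removed (adjusted p 0.0530 and 0.0721), while over all settings its adjusted p ran from 0.00397 to 0.0721.

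Between lanosterol and cholesterol 5 of 9 genes fell in siMENA11a. The largest fall of all 29 genes was in LBR, a protein of the inner nuclear membrane that binds lamin B and carries a sterol C14-reductase activity of the pathway. LBR measured 10.5, 10.2 and 10.4 FPKM in siMENA11a and 23.4, 22.3 and 21.9 FPKM in siMENA, against 19.8, 21.2 and 22.2 FPKM in control. The siMENA11a libraries varied little and lay at 49.1% of the control mean, and siMENA overlapped with control. The log2 fold change was -0.96 (SE 0.06, limma adjusted p 2.56e-05), rank 28 from the bottom of all 13273 genes tested. TM7SF2, which encodes the other C14-reductase, did not pass, with 8.16, 5.46 and 5.76 FPKM in siMENA11a and 5.99, 7.78 and 7.53 FPKM in siMENA, against 7.85, 6.05 and 7.02 FPKM in control, a log2 fold change of -0.11 in siMENA11a (adjusted p 0.65, 95% interval -0.43 to 0.21). LBR lies at chr1:225401502-225428925 (GRCh38, minus strand), 57909 bases from ENAH at chr1:225486835-225653142 on the same strand. Of the annotated genes, 2 non-coding ones lie between them.

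CYP51A1, DHCR7, EBP and NSDHL also fell. CYP51A1, the lanosterol demethylase, had 40.2, 35.8 and 43.4 FPKM in siMENA11a, 63.8, 59.8 and 63.04 FPKM in siMENA and 56.5, 58.6 and 60.5 FPKM in control (log2 fold change in siMENA11a -0.55, adjusted p 0.000845). DHCR7, which performs the last reduction to cholesterol, had 31.5, 28.8 and 33.3 FPKM in siMENA11a, 54.5, 49.5 and 52.5 FPKM in siMENA and 49.3, 44.02 and 45.5 FPKM in control (-0.55, adjusted p 0.000736). In both genes every siMENA11a library was below every other library. EBP, the sterol isomerase, had 32.2, 29.2 and 33.99 FPKM in siMENA11a, 56.7, 53.9 and 46.3 FPKM in siMENA and 46.7, 47.2 and 43.9 FPKM in control (-0.52, adjusted p 0.00244). NSDHL, a dehydrogenase of the C4-demethylation, had 12.6, 12.2 and 9.55 FPKM in siMENA11a, 19.5, 17.7 and 18.4 FPKM in siMENA and 16.2, 16.3 and 16.4 FPKM in control (-0.48, adjusted p 0.00605). The siMENA means of CYP51A1, DHCR7, EBP and NSDHL stood at 106.2%, 112.8%, 113.9% and 113.6% of control, none of them past the test in the main fit. EBP passed as higher without siMENA replicate 3 (log2 fold change 0.26, limma adjusted p 0.0405), and DHCR7 with the replicate block (adjusted p 0.0439).

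The remaining 3 enzymes of this stretch did not pass against control. MSMO1, the C4-methyl oxidase and the enzyme with the highest mean in control, had 85.6, 79.1 and 89.9 FPKM in siMENA11a, 95.2, 81.2 and 95.4 FPKM in siMENA and 92.9, 96.7 and 96.98 FPKM in control. The siMENA11a libraries all lay below control, with a log2 fold change of -0.17 that did not pass (adjusted p 0.134). SC5DL, the sterol C5-desaturase, had 8.12, 8.89 and 8.66 FPKM in siMENA11a and 9.48, 9.49 and 8.75 FPKM in siMENA, against 9.50, 10.3 and 10.04 FPKM in control. Its log2 fold change of -0.20 missed the threshold in siMENA11a (adjusted p 0.0532) and passed with a filter of 2 FPKM or with a block for the replicate number (adjusted p 0.0452 and 0.0437). HSD17B7, a keto-reductase, overlapped between all groups at 9.45 to 15.5 FPKM, and its value is uncertain because 2 named pseudogenes resemble it.

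**Figure D2:**
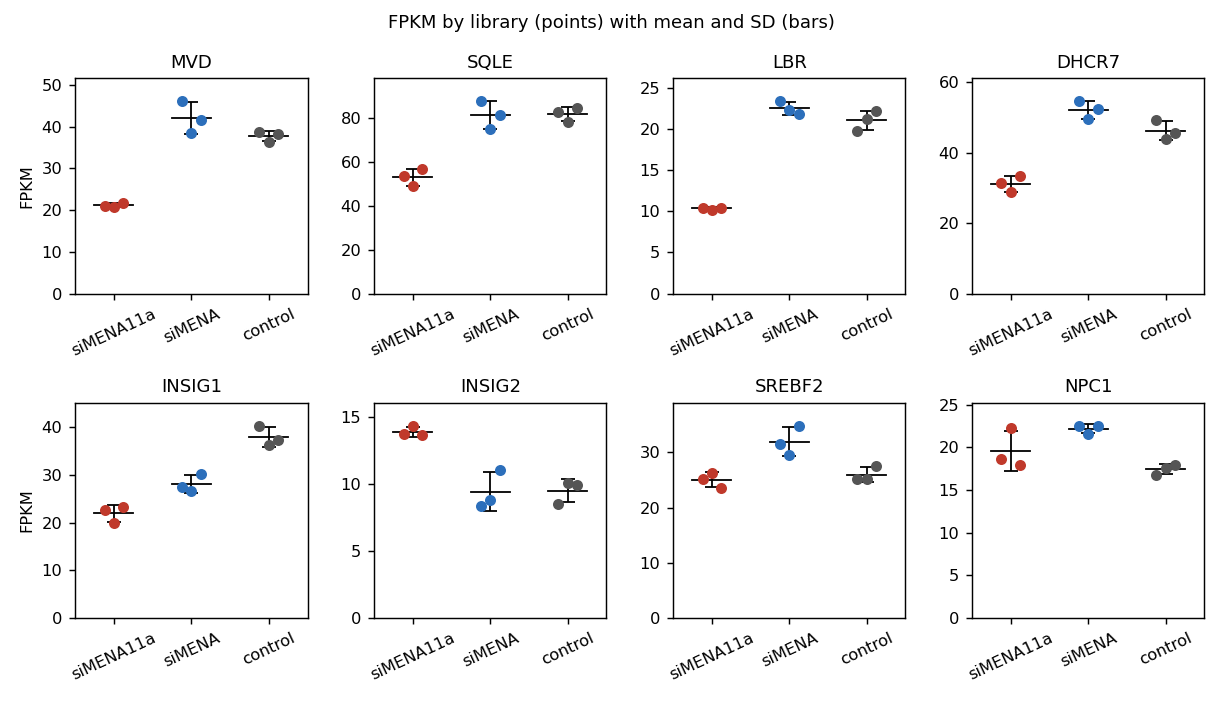
FPKM (vertical axis, from 0) of 8 genes in the 3 libraries of each group (points), with the mean (line) and SD (error bar). MVD, SQLE, LBR and DHCR7 are low in siMENA11a only, INSIG1 is low in both siRNA groups, INSIG2 is high in siMENA11a only, and SREBF2 and NPC1 have their highest mean in siMENA.

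The 2 INSIG genes moved in opposite directions in siMENA11a. INSIG1, the retention factor that SREBP2 induces, measured 22.6, 19.998 and 23.4 FPKM in siMENA11a and 27.6, 26.6 and 30.2 FPKM in siMENA, against 40.3, 36.3 and 37.4 FPKM in control. The groups did not overlap, with siMENA11a lowest and control highest, and the means of the siRNA groups were 57.9% and 73.97% of control. INSIG1 fell by 0.76 in siMENA11a (SE 0.07, limma adjusted p 0.000185) and by 0.42 in siMENA (adjusted p 0.00424), and it was lower in siMENA11a than in siMENA (-0.34, adjusted p 0.00522). In the fit without a block it was the only one of the 29 genes that passed as lower in both siRNA groups, which share their control libraries. With the block FDPS and STARD4 did too. INSIG2, the second retention factor, measured 13.7, 14.3 and 13.7 FPKM in siMENA11a and 8.33, 8.82 and 11.1 FPKM in siMENA, against 8.51, 10.04 and 9.91 FPKM in control. All siMENA11a libraries were above all others. INSIG2 rose to 146.4% of control (log2 fold change 0.51, SE 0.10, adjusted p 0.00683), while siMENA and control overlapped (-0.02, adjusted p 0.918, 95% interval -0.24 to 0.20).

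SREBF2, the gene of SREBP2, rose in siMENA. It measured 25.2, 26.3 and 23.5 FPKM in siMENA11a and 31.4, 29.5 and 34.8 FPKM in siMENA, against 25.2, 25.2 and 27.5 FPKM in control. All siMENA libraries were above all others, and siMENA11a overlapped with control (log2 fold change -0.05, adjusted p 0.669, 95% interval -0.21 to 0.11). The rise in siMENA was 0.29 (SE 0.07, limma adjusted p 0.0203). The call was lost without any one of control replicates 1 and 2 and siMENA replicates 1 and 3 (adjusted p 0.0583 to 0.0688, against 0.0183 to 0.0688 over all settings). Against siMENA, SREBF2 was lower in siMENA11a (-0.34, adjusted p 0.00486), a call that every setting kept.

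The other parts of the switch did not pass against control in the fit of all libraries. SREBF1, which encodes the SREBP1 factors of fatty acid synthesis, had 19.96, 19.8 and 17.5 FPKM in siMENA11a, 22.1, 21.1 and 26.5 FPKM in siMENA and 21.8, 20.7 and 22.1 FPKM in control. It was lower in siMENA11a than in siMENA (-0.27, adjusted p 0.0321), a call that median-ratio scaling, quantile normalization, a fit of these 2 groups alone and the loss of siMENA11a replicate 3 or siMENA replicate 1 or 3 each ended (adjusted p 0.0507 to 0.104, against 0.0231 to 0.104 over all settings). SCAP, the sterol sensor, stayed between 19.6 and 22.7 FPKM in all 9 libraries. MBTPS1, the site-1 protease, had 40.2, 38.8 and 33.5 FPKM in siMENA11a, 47.01, 47.9 and 50.6 FPKM in siMENA and 41.3, 43.3 and 43.6 FPKM in control. The siMENA11a libraries were lowest and the siMENA libraries highest, without overlap, and MBTPS1 passed between the siRNA groups (-0.36, adjusted p 0.00274). In siMENA against control it passed as higher in a fit of those groups alone and without siMENA11a replicate 3 (adjusted p 0.0397 and 0.0334). MBTPS2, the site-2 protease, ranged from 4.71 to 9.65 FPKM and overlapped between the groups. In siMENA11a against siMENA its log2 fold change of 0.40 did not pass in the main fit. It passed as higher with the replicate block, without siMENA11a replicate 1 and without siMENA replicate 3 (limma adjusted p 0.0130, 0.0250 and 0.0254).

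Of the 2 sterol transport genes, 1 rose in siMENA and none passed in siMENA11a. NPC1, which moves cholesterol out of the lysosome, had 18.6, 22.2 and 17.9 FPKM in siMENA11a and 22.5, 21.5 and 22.5 FPKM in siMENA, against 16.8, 17.6 and 17.9 FPKM in control. All siMENA libraries exceeded all control libraries, at 127.4% of the control mean (log2 fold change 0.33, SE 0.08, limma adjusted p 0.0142). That call was lost without control replicate 1 or siMENA replicate 1 (adjusted p 0.0528 and 0.0538, against 0.00265 to 0.0538 over all settings). STARD4, a cytosolic sterol carrier and SREBP2 target, was lower on average in both siRNA groups: 7.54, 5.203 and 9.82 FPKM in siMENA11a and 7.07, 5.35 and 7.27 FPKM in siMENA, against 9.82, 8.17 and 10.9 FPKM in control. The siMENA libraries all lay below control and the siMENA11a libraries overlapped with it. Neither fold change passed (-0.35 in siMENA11a, adjusted p 0.227, and -0.49 in siMENA, adjusted p 0.0962). With the replicate block both passed (adjusted p 0.0229 in siMENA11a and 0.00626 in siMENA). The value in siMENA11a was -0.14 without siMENA11a replicate 2 and -0.54 without siMENA11a replicate 3. The value in siMENA also passed in a fit of siMENA and control alone, without siMENA11a replicate 2 and without the libraries numbered 2 (adjusted p 0.0326 to 0.0423).

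Deviations from the group means correlated across genes at 0.124, 0.378 and 0.196 between same-numbered libraries of siMENA and control. Unlike-numbered libraries of these groups ran from -0.242 to 0.113, and the highest of these was close to the 0.124 of the libraries numbered 1. With the replicate number as a block, 3 of the 29 genes were lower in siMENA (INSIG1, STARD4 with adjusted p 0.00626 and FDPS) and 4 were higher (SREBF2, NPC1, HMGCS1 with adjusted p 0.0348 and DHCR7 with adjusted p 0.0439). Of the 20 enzymes, 7 had all siMENA libraries above all control libraries (ACAT2, HMGCS1, MVK, IDI1, LSS, NSDHL and DHCR7) and 2 had them all below (FDPS and SC5DL). How many of all genes were separated in this way was not counted, so no excess among the enzymes can be read from it. None of the 20 passed in the fit without the block, where 10.3% of all genes were called higher and 8.24% lower.

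**Figure D3:**
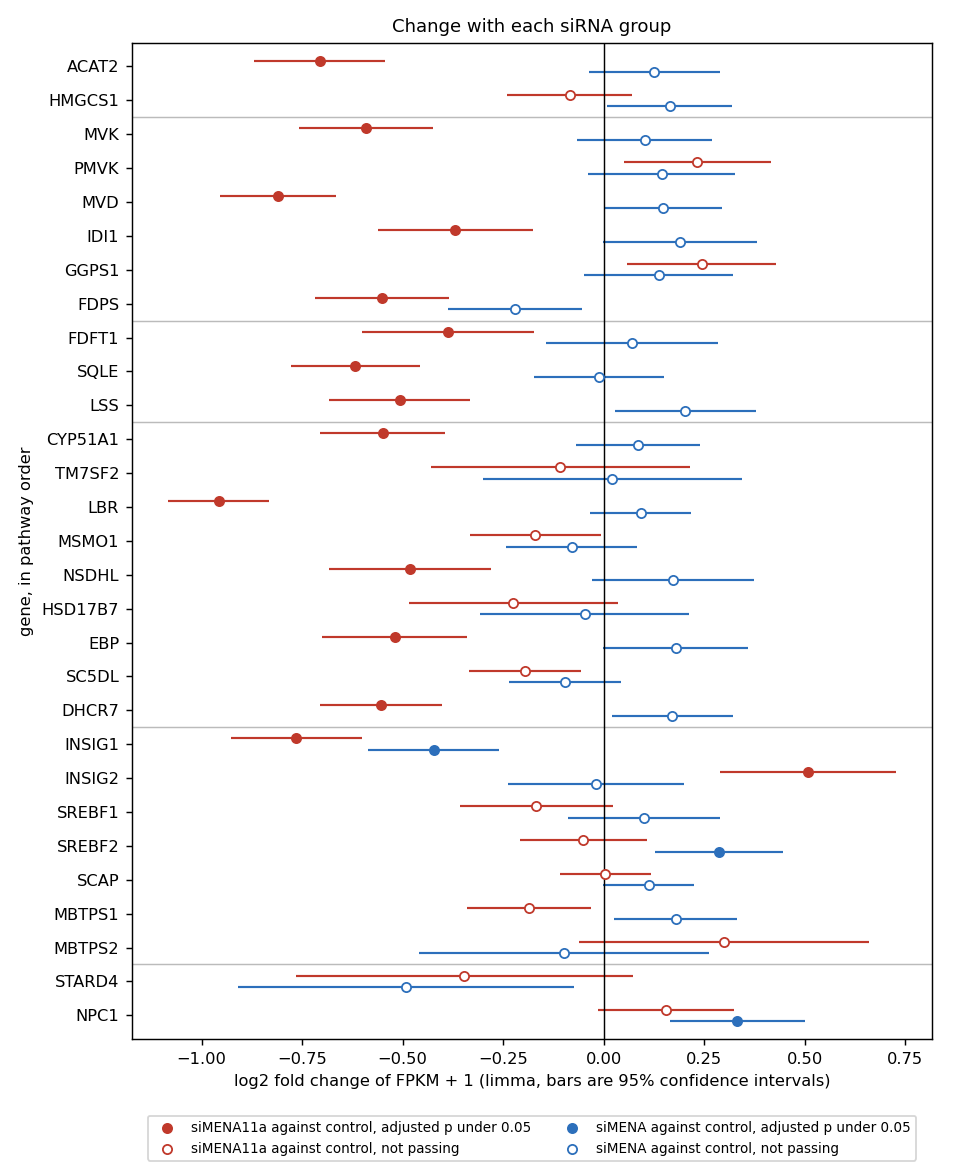
Log2 fold change of FPKM + 1 (horizontal axis) with its 95% confidence interval from limma for the 29 genes (rows, in pathway order), siMENA11a against control in red above siMENA against control in blue. Filled points had an adjusted p under 0.05. The red points of 13 enzymes lie between -0.96 and -0.37, while the blue points of all 20 enzymes lie between -0.22 and 0.20.

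As a group, the 20 enzymes had a median log2 fold change of -0.49 in siMENA11a against control and 0.11 in siMENA against control, where the medians over all 13273 genes were -0.01 and 0.04. Library by library, the median difference of the enzymes from the control mean was -0.37, -0.56 and -0.42 in siMENA11a and 0.18, 0.05 and 0.08 in siMENA, against 0.01, -0.01 and 0.01 in control. The summed level of the enzymes was 600.2, 540.9 and 614.4 FPKM in siMENA11a and 866.2, 776.6 and 807.3 FPKM in siMENA, against 786.8, 768.6 and 789.4 FPKM in control. In both measures replicate 2 was the lowest library of each of the siMENA11a, siMENA and control groups. These are the libraries with the higher VIM. Directly between the siRNA groups, 14 of the 20 enzymes were lower in siMENA11a and none was higher, with a median of -0.58. That is 70% lower, next to 22.2% lower and 14.4% higher among all genes, whose median was -0.05.

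Genes outside these 29 that SREBPs are known to induce were counted from a separate list. Of 21 such genes tested, 8 were lower and none was higher in siMENA11a against control, and 3 were lower and 2 higher in siMENA against control, with medians of -0.16 and -0.05. In siMENA11a that is 38.1% lower, next to 11.3% of all genes. In siMENA it is 14.3% lower and 9.52% higher, near the 8.24% and 10.3% of all genes. TMEM97, the sigma-2 receptor that interacts with NPC1, had 11.96, 10.2 and 11.6 FPKM in siMENA11a and 26.5, 23.96 and 22.3 FPKM in siMENA, against 21.8, 23.6 and 21.0 FPKM in control, so that all siMENA11a libraries were far below the rest (log2 fold change -0.92, limma adjusted p 0.000115). The fatty acid desaturases FADS2, SCD and FADS1 were lower in siMENA11a by log2 fold changes of -0.78, -0.73 and -0.70. In siMENA, RDH11, a retinol dehydrogenase, had the largest fall of the list (-0.67, adjusted p 2.45e-05), with SCD at -0.46 (adjusted p 0.0489) and the citrate carrier SLC25A1 at -0.28, while ELOVL5, a fatty acid elongase, rose by 0.30. MMAB, which is read from the same locus as MVK on the other strand, was 5.44, 4.25 and 5.69 FPKM in siMENA11a and 6.20, 6.09 and 6.16 FPKM in siMENA, against 7.79, 6.60 and 6.81 FPKM in control (-0.40 in siMENA11a, adjusted p 0.0178). Whether strand was used in the counting is not given in the sources used here, so reads of MVK and MMAB may have been shared. MMAB was singled out after its values were seen. ACAT2, IDI1, GGPS1, FDPS and SREBF1 are likewise overlapped on the other strand by a gene of the table. Between the siRNA groups, 6 of the 21 SREBP targets were lower in siMENA11a (28.6%, near the 22.2% of all genes) and 2 were higher (9.52%, next to 14.4%). TMEM97 (-1.04) and FADS1 (-0.69) had the largest falls.

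The lists of neighbouring processes are given for their members. In siMENA11a each had 0 or 1 gene called in a direction (0% to 7.69%), next to 11.3% lower and 8.16% higher among all genes. In siMENA the shares ran from 0% to 14.3% lower and from 7.14% to 21.1% higher, next to 8.24% and 10.3%, on 13 to 19 genes a list. Of 14 genes that use isoprenoids outside sterol synthesis, 1 was higher and none lower (FNTA, the farnesyltransferase alpha subunit, 0.35, adjusted p 0.0391). In siMENA 1 of them was higher, again FNTA (0.47), and 2 were lower, NUS1 (-0.51) and RABGGTB (-0.36). Of 13 genes for the degradation of sterol enzymes and INSIG at the endoplasmic reticulum, 1 rose and 1 fell in siMENA11a, and these were partners: ERLIN1 by 0.50 (adjusted p 0.0022) and ERLIN2 by -0.72 (adjusted p 0.000552), whose proteins form one membrane complex. In siMENA ERLIN1 was higher by 0.33, RNF139 by 0.24 and ERLIN2 was lower by -0.42. Of 19 genes for the uptake, efflux and storage of sterols and the LXR response, 1 fell in siMENA11a (LPCAT3, -0.35, adjusted p 0.00548), whereas 4 rose in siMENA: NCEH1 (0.64, adjusted p 0.0183), SOAT1 (0.34, adjusted p 0.00706), LPCAT3 (0.23, adjusted p 0.0343) and LIPA (0.22, adjusted p 0.0203). NCEH1 and LIPA release cholesterol from its esters and SOAT1 forms them.

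The sequence of exon 11a is shown because the siMENA11a siRNAs match it and because pieces of it recur in 3' UTRs of the genes above. Exon 11a lies at chr1:225504991-225505053 (GRCh38, minus strand) and has 63 bases. The capitals mark 8 bases that hold the overlapping 7-base words CCAAGGA and CAAGGAA. These words were picked in an earlier examination of these same libraries for genes that were lower in siMENA11a, so a link with lower genes is built in.
ENAH exon 11a: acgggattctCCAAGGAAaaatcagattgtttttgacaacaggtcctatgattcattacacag

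Of the 29 genes, 8 carry either word in an annotated 3' UTR (27.6%), near the 25.7% among 12212 genes searched. Of the 8 carriers 5 were lower in siMENA11a (LBR, INSIG1, CYP51A1, LSS and NSDHL), and SREBF2, TM7SF2 and STARD4 did not pass. Of the 21 genes without a word, 9 were lower and 1 was higher. The median log2 fold change was -0.49 with a word and -0.20 without. Because the words were picked from these same libraries, this split cannot test them. MVD, ACAT2, SQLE, MVK, DHCR7, FDPS, EBP, FDFT1 and IDI1 are the 9 that fell without carrying one. Whether the siRNAs act on the carriers directly was not tested. The sites of the 5 that fell and of SREBF2, which did not, are given with their flanks (GRCh38, 5' to 3' on the transcript strand, the word in capitals). LBR has 2 separate sites.
LBR at chr1:225403228-225403256: atttgcaaaaaCAAGGAAaaaaatccgaa
LBR at chr1:225401680-225401708: actggattgcaCCAAGGAagcttttgggg
INSIG1 at chr7:155308286-155308314: gattctgagagCAAGGAAgattttggaag
CYP51A1 at chr7:92113638-92113664: aaaaggttgCAAGGAAcgaatatatgt
LSS at chr21:46188284-46188312: agacggtaggaCAAGGAAcggtaccagaa
NSDHL at chrX:152869433-152869461: ttgtacataatCAAGGAAgctgtaggaag
SREBF2 at chr22:41893239-41893267: gaagtcagctgCCAAGGAgagtctatact

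**Figure D4:**
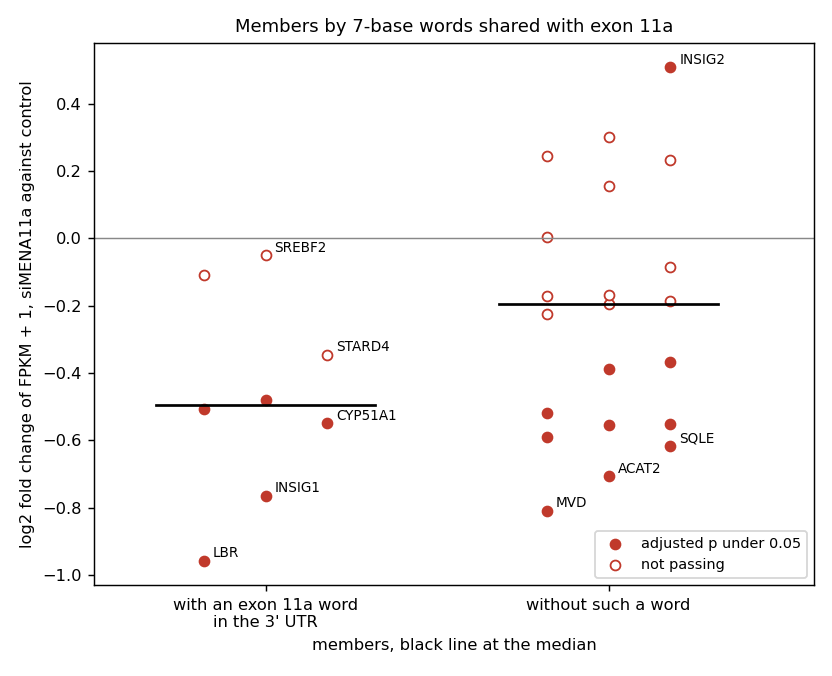
Log2 fold change of FPKM + 1 in siMENA11a against control (vertical axis) for the 8 genes with an exon 11a word in the 3' UTR and the 21 without, with the median of each (black line at -0.49 and -0.20). Filled points had an adjusted p under 0.05, and such points appear in both columns. The words were picked from these same libraries, so the split is not a test of them.

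INSIG1, which fell in both siRNA groups, also carries CAGAATA, 1 of 2 overlapping words (the other is AGAATAA) picked in the same way for genes lower in siMENA. Of the 29 genes, 8 carry either of this pair, or 27.6%, next to 28.4% of the genes searched. Of these 8, INSIG1 was called lower in siMENA. STARD4 was so only with the block and the other settings named above, and HMGCS1, CYP51A1, LBR, SC5DL, INSIG2 and MBTPS2 were not called lower. Both words also occur in the 3' UTR of ENAH.
INSIG1 at chr7:155309087-155309115: gtttgttactaCAGAATAgagatgactgt

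Promoters were searched because 13 of the 20 enzymes fell in siMENA11a. RefSeq starts were found for 26 of the 29 genes (GRCh38.p14), and a 300-base window across each start was read on both strands. The sterol regulatory element to which SREBPs bind, taken as TCACNCCAC, occurred in 1 of the 26 promoters, that of SREBF2 (3.85%), next to 1.103% of 10243 promoters of genes tested. The CCAAT box, the site of NF-Y, a usual partner of SREBPs, occurred in 15 of 26 (57.7%), next to 36.8% of the promoters of genes tested. The GC box GGGCGG, a site of Sp1, occurred in 21 of 26 (80.8%), next to 70.5%. A match to these letters is not a measured binding site, and a promoter without the exact letters may still hold a site. The 150 bases before the RefSeq start are shown for SREBF2, which holds all 3 motifs, and for MVD, MVK and DHCR7, which fell in siMENA11a and carry no exon 11a word. The capitals mark TCACNCCAC, CCAAT and GGGCGG on either strand, so that ATTGG and CCGCCC are the same boxes read on the other strand.
SREBF2 at chr22:41832955-41833104, plus strand: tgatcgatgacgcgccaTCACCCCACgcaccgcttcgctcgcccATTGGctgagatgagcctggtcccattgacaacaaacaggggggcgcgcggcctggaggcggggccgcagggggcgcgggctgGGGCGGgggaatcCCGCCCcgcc
MVD at chr16:88663092-88663241, minus strand: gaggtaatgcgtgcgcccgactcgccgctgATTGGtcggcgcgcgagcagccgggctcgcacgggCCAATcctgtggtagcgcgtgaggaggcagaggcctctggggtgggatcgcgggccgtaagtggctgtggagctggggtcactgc
MVK at chr12:109573644-109573793, plus strand: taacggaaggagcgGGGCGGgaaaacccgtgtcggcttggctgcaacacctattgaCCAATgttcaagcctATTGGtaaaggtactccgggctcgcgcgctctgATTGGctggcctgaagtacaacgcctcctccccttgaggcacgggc
DHCR7 at chr11:71448394-71448543, minus strand: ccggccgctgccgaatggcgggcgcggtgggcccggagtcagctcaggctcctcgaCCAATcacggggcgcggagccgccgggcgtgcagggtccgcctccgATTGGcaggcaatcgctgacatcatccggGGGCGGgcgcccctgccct

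In these stretches SREBF2 has 1 sterol element with 1 CCAAT box close by, MVD has 2 CCAAT boxes, MVK 3 and DHCR7 2.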

How the data were processed

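RNA was measured in 9 libraries, 3 per group, from ribosome-depleted total RNA with a stranded kit, read as pairs of 75 bases, per the labels' protocols. The authors deposited 1 table of FPKM values. The submitters' processing notes name the build hg19. The aligner and the counting tool are not named, and the annotation is likewise not given in the sources used here. No counts stand in the table, so depth is unknown and no counting interval can be given. The libraries' FPKM sums ran from 558754 to 592930.

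In the deposited FPKM table some values lacked their decimal point. A whole number at least 50 times the median of the gene's decimal values, or in a gene without decimal values, was divided by 1000. This touched 11524 values, 14 of them among the 261 values of the genes described here (633-fold to 1153-fold above their gene's other values). Missing values removed 1286 genes, and a comma was taken as the decimal sign in 1 value.

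Genes averaging 0.5 FPKM or more, 13273 in all, were tested as log2(FPKM + 1) with limma 3.58.1 in R 4.3.3, in one fit of all 9 libraries with group as the term, a mean-variance trend and 6 residual degrees of freedom. P-values were adjusted by Benjamini-Hochberg over all genes tested, and an adjusted p under 0.05 counted as passing. With 3 against 3 libraries an exact permutation test cannot give a p below 0.1, so none was used. The genes and lists were chosen with earlier results of these data known. All 29 genes are named, and up to 4 passing genes with the largest change per further list.

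The labels give all groups the replicate numbers 1 to 3. Deviations from the group means correlated between same-numbered siMENA and control libraries at 0.124, 0.378 and 0.196, each over 0.1, the cut used for pairing. Unlike-numbered siMENA and control libraries ran from -0.242 to 0.113, and siMENA replicate 3 with control replicate 1 was over the same cut. The cut therefore does not show pairing for every number. Libraries numbered 2 correlated at 0.378 between siMENA and control, 0.425 between siMENA11a and control and 0.309 between the siRNA groups. Every unlike-numbered pair with a library numbered 2 had a negative correlation. The main fit leaves this shared deviation in the spread between libraries, and the block is given as an alternative only. The labels do not say what a number marks.

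3' UTRs and loci came from GENCODE release 29 (GRCh38) and promoters from RefSeq (GRCh38.p14). Alternatives were another pseudocount, filter, scaling, variance model and set of libraries, the replicate block, and repaired values left out.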

Additional observations from a re-analysis of the deposited data

How the results depend on the processing

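Of 19 alternative settings, each kept the calls of 13 of the 15 genes called in siMENA11a against control (all but IDI1 and FDFT1), 1 of the 3 in siMENA against control (INSIG1) and 17 of the 19 in siMENA11a against siMENA (all but HMGCS1 and SREBF1), and no called gene changed sign. Leaving out the 3 libraries numbered 2 was added after the data were seen. The replicate block moved the genes called higher to 2 in siMENA11a against control (INSIG2 and GGPS1), 4 in siMENA against control and 2 in siMENA11a against siMENA, and those called lower in siMENA against control to 3. Among all genes tested, the block gave 3431, 3149 and 5648 calls in these 3 comparisons, against 2583, 2463 and 4857 without it. A fit of the 2 groups alone gave 2 higher in siMENA11a against control and 3 lower in siMENA against control. Same-numbered siMENA11a and control libraries correlated at 0.206, 0.425 and -0.0302, and siMENA11a replicate 3 with control replicate 1 at 0.321. Same-numbered siMENA11a and siMENA libraries correlated at 0.0863, 0.309 and 0.0203, and siMENA11a replicate 3 with siMENA replicate 1 at 0.205. Beyond the libraries numbered 2, pairing by number is not shown for these comparisons, so calls with the block, here and above, are those of an alternative setting. Without single libraries or the libraries numbered 2, the counts of the 29 genes ran from 1 to 2 higher in siMENA11a against control, 1 to 3 lower and 0 to 3 higher in siMENA against control (0 without control replicate 1 or siMENA replicate 1), and 1 to 2 higher in siMENA11a against siMENA. All genes called ran from 1493 (without control replicate 3) to 2483 in siMENA11a against control, where 2583 were called with all libraries, and from 1346 (without siMENA replicate 1) to 2902 in siMENA against control, where 2463 were. The siMENA against control count also came to 1446 and 1555 when control replicate 3 or control replicate 1 was removed and to 1572 when siMENA replicate 2 was, and the siMENA11a against control count 1641 without the libraries numbered 2. In siMENA against control 44.4% of all calls were lower, and 56.4% with median-ratio scaling. The sign of some genes that did not pass changed. In siMENA against control TM7SF2 was -0.0096 with median-ratio scaling and -0.015 with quantile normalization and SQLE 0.0026 with quantile normalization. Over left-out libraries TM7SF2 ran from -0.13 to 0.12, SQLE from -0.066 to 0.045, FDFT1 from -0.00056 to 0.13, INSIG2 from -0.13 to 0.058, MBTPS2 from -0.25 to 0.038, HSD17B7 from -0.12 to 0.032 and MSMO1 from -0.12 to 0.0062. In siMENA11a against control SCAP ran from -0.020 to 0.030. In siMENA11a against siMENA STARD4 ran from -0.046 to 0.36, PMVK from -0.011 to 0.18 and TM7SF2 from -0.29 to 0.028. The cause of these changes was not tested. FDPS, CYP51A1 and HSD17B7 have named pseudogenes, and 16 of the 29 genes are overlapped by a gene on the other strand, which may share their reads. Depth is unknown and limits the precision of low values to an unknown degree.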
